A study of Homo sapiens with 9 samples.

Results

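DNA methyltransferases, TET dioxygenases and the proteins that read or repair modified CpG sites were examined as a set of 10 genes chosen by symbol. The genes were DNMT1, DNMT3A, DNMT3B, UHRF1, UHRF2, TET1, TET2, TET3, MBD2 and MBD4. All 10 were found among the 26816 genes of the deposited count table, and all 10 passed the filter on low counts that left 15725 genes for testing. RNA carrying a polyA tail was sequenced from OCI-Ly1 cells, an established human lymphoma line (diffuse large B-cell, germinal-centre type). The groups were cells with the LSD1 shRNA sh72, cells with the LSD1 shRNA sh68 and cells with the non-targeting control shSCR, with 3 biological replicates each. Every group carried an shRNA in the pLKO1 vector and was selected with puromycin, so the control shares the vector and the drug. LSD1 is the histone demethylase encoded by KDM1A. A single line limits the comparison to that line's own genotype.

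DNA methylation at CpG sites is copied after replication by DNMT1, which UHRF1 brings to hemimethylated DNA, and is laid down at new sites by DNMT3A and DNMT3B. TET1, TET2 and TET3 oxidise 5-methylcytosine and so open the way to its loss, and MBD2 and MBD4 bind methylated CpG sites. In germinal-centre B cells these enzymes act while the cells divide fast, and DNMT3A and TET2 are recurrently mutated in blood cancers. In mouse embryonic stem cells LSD1 is known to remove methyl groups from the DNMT1 protein itself. The libraries measure RNA only, and neither DNA methylation nor protein was measured.

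Each library held between 29506767 and 35270849 counted reads. KDM1A had 19.1, 22.7 and 20.9 CPM (the gene's share of the TMM-scaled library) in the sh72 libraries and 23.4, 24.1 and 25.8 CPM in the sh68 libraries, against 121, 120 and 123 CPM in the shSCR libraries. All 6 LSD1 shRNA libraries lay below all 3 controls, and the mean was 17.2% of shSCR with sh72 and 20.2% with sh68. The 8 B-cell markers summed to between 2780 and 2950 CPM in sh72 libraries and between 4360 and 4480 CPM in sh68 libraries, against 4370 to 4510 CPM in shSCR libraries. Markers of T cells and myeloid cells summed to at most 1.17 and 0.787 CPM in any library. All 8 B-cell markers fell with sh72, and with sh68 3 rose and 1 fell. The 6 plasma-cell markers summed to 1800 to 2030 CPM with sh72 and 1930 to 2070 CPM with sh68. With shSCR they summed to 1220 to 1280 CPM. All 6 LSD1 shRNA libraries thus lay above the controls. The same held for DNMT1, TET1, TET3 and MBD2, and for 14.6% of all tested genes. Most of the plasma-cell sum was JCHAIN, with means of 1700, 1810 and 1110 CPM in sh72, sh68 and shSCR libraries. Of the 6 markers, 3 rose and 1, SDC1, fell with sh72, while 5 rose and none fell with sh68. The 7 germinal-centre markers summed to 1340 to 1420 CPM with sh72 and 1750 to 1780 CPM with sh68. Their sum was 1530 to 1580 CPM with shSCR. Of these 7, 1 rose and 5 fell with sh72, and 3 rose and 3 fell with sh68. Over all tested genes 24.7% rose and 26.3% fell with sh72, and 27.4% rose and 28.1% fell with sh68. The part of these B-cell programmes in the values of the 10 genes was not tested. Fibroblast markers summed to 1.31 to 3.44 CPM with sh72, 1.5 to 1.82 CPM with sh68 and 0.433 to 0.589 CPM with shSCR. Epithelial markers summed to 15.6 to 16.2 CPM with sh72, 7.52 to 8.89 CPM with sh68 and 15.2 to 18.1 CPM with shSCR. Nearly all of the epithelial sum was EPCAM, with means of 15.8, 8.14 and 16.7 CPM in sh72, sh68 and shSCR libraries. In bulk RNA a lower share of cells that express a gene and less of its RNA per cell cannot be told apart.

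The reads of the 10 genes made up between 0.129% and 0.164% of all reads of a library. DNMT1 rested on between 19706 and 29105 reads per library, whereas TET1 rested on between 60 and 149 reads, so small differences are measured far less precisely for TET1. DNMT3A had between 169 and 333 reads and DNMT3B between 174 and 236. In the main fit, p-values set a difference against the spread between replicate libraries within each group. They cover these 9 libraries and do not cover further shRNAs.

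DNMT1 and UHRF1, the enzyme and the cofactor of maintenance methylation, were the members whose RefSeq promoters (GRCh38.p14) held an E2F-type motif, and those stretches are shown for that reason. E2F factors drive genes of DNA replication, and both genes are known to peak in S phase. All 10 genes matched the promoter table, with 21 windows of 300 bases that reach from 250 bases before to 50 bases after an annotated start. The motifs searched, on both strands, were TTTCCCGC, TTTGGCGC, TTTCGCGC and TTTGCCGC, and 3.31% of all 35116 windows held at least 1 of them. In the following stretches, which end 20 bases after the start and are written 5′ to 3′ in the gene's direction, capitals mark the motif or its reverse complement.
DNMT1, chr19:10194934-10195153, minus strand: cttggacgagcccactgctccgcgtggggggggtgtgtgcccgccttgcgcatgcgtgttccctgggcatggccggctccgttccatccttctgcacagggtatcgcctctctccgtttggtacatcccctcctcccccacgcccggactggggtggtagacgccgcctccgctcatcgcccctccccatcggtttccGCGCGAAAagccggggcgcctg
UHRF1, chr19:4909301-4909520, plus strand: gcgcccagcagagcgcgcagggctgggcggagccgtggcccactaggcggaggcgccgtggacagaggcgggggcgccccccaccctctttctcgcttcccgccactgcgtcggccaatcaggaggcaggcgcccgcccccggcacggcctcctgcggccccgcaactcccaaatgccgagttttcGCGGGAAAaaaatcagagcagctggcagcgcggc
UHRF1, chr19:4909944-4910163, plus strand: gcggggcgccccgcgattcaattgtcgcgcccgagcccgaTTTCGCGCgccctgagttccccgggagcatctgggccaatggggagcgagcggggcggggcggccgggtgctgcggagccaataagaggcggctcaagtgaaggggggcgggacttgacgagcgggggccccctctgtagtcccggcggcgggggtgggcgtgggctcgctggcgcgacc

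The DNMT1 window held 30 CpG sites and the 3 UHRF1 windows held 36, 40 and 46, against a median of 14 over all windows. The TET1 windows held 10, 6 and 11 CpG sites and the DNMT3B window held 3. A letter match is a description of these windows and gives no binding or regulation.

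**Figure D1:**
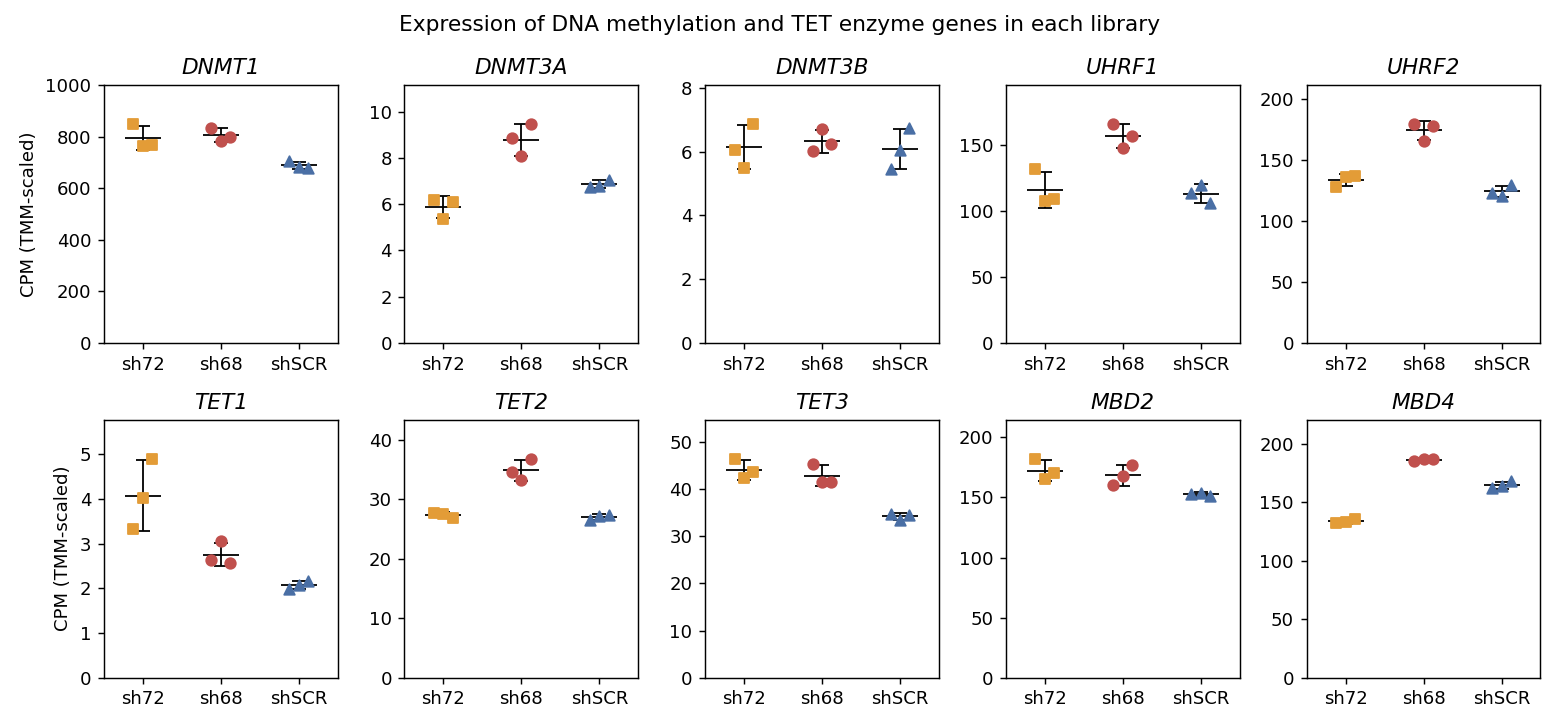
Expression of the 10 genes in each library, in TMM-scaled CPM on a linear axis from 0. Points are the 3 libraries of sh72, sh68 and shSCR, and the black line and bars are their mean and SD. For DNMT1, TET1, TET3 and MBD2 all 6 LSD1 shRNA libraries lie above all 3 shSCR libraries, and for MBD4 the sh72 libraries lie below and the sh68 libraries above the shSCR libraries.

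The first question was what LSD1 knockdown did to these genes on average over both shRNAs. DNMT1, UHRF1, UHRF2, TET1, TET2, TET3 and MBD2 rose, and none of the 10 fell. The rises were small, between 11.7% for MBD2 and 60.9% for TET1. Over all tested genes 24.9% rose and 27.5% fell by the same rule (edgeR's quasi-likelihood test, Benjamini-Hochberg adjusted p below 0.05). The median log2 fold change of the 10 genes was 0.21, against -0.02 over all tested genes. When the 6 LSD1 shRNA libraries were fitted as 1 group, so that the difference between the shRNAs counts as spread, 4 of the 10 genes still rose, and 3581 genes of the whole table were called, 1857 higher and 1724 lower. The 3 genes that lost their call were TET2, UHRF1 and UHRF2, with edgeR adjusted p of 0.2, 0.201 and 0.0791. The 4 that kept it were TET3, DNMT1, TET1 and MBD2, with adjusted p of 0.00204, 0.00983, 0.0395 and 0.0435. This fit still takes the 6 libraries as independent, although they are replicates of sh72 and sh68.

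All 6 LSD1 shRNA libraries lay above all 3 shSCR libraries for 4 of the 10 genes, DNMT1, TET1, TET3 and MBD2, and lay below them for none. Over all tested genes 14.6% lay above in this way and 15.3% below. A two-sided exact permutation test of 6 libraries against 3, whose smallest possible p is 0.0119, gave p = 0.0119 for DNMT1, TET3 and MBD2 and p = 0.0357 for TET1 and UHRF2. For TET2, UHRF1, MBD4, DNMT3B and DNMT3A the exact p was 0.119, 0.179, 0.679, 0.702 and 0.75.

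The second question was what each shRNA did. With sh72, 5 of the 10 genes rose, namely DNMT1, TET1, TET3, UHRF2 and MBD2, and MBD4 fell. Over all tested genes 24.7% rose and 26.3% fell with sh72. With sh68, 9 of the 10 genes rose, all but DNMT3B, and none fell, while 27.4% of all tested genes rose and 28.1% fell. The median log2 fold change of the 10 genes was 0.07 with sh72 and 0.34 with sh68, against -0.01 over all tested genes in each. The calls over all tested genes with sh68 were 4309 higher and 4418 lower. In the 13135 genes with a GC content and length they were 3720 higher and 3897 lower, and with per-library offsets for both properties 2987 higher and 5404 lower. Of the 10 genes, 7 were called with the offsets and 9 without them in that gene set.

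The shRNAs also differed from each other for 6 of the 10 genes. TET1 was higher with sh72, and DNMT3A, UHRF1, UHRF2, TET2 and MBD4 were lower with sh72 than with sh68. By the same test 27.2% of all genes were higher and 29.0% lower with sh72, so 6 of 10 is close to the share of the whole table. Over all tested genes 4278 were higher and 4563 lower with sh72. In the 13135 genes with a GC content and length the split was 4044 higher and 3889 lower, and with the offsets 5134 higher and 3241 lower. With the offsets 9 of the 10 genes differed between the shRNAs, 4 higher and 5 lower with sh72.

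**Figure D2:**
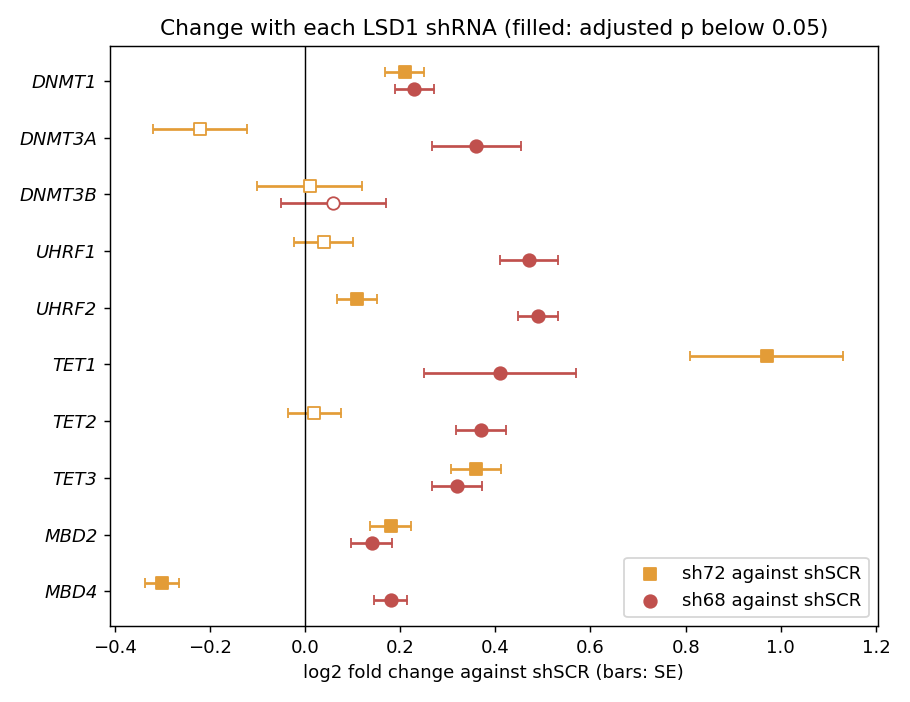
Log2 fold change of each gene with sh72 and with sh68 against shSCR, with SE bars from edgeR's quasi-likelihood fit; filled symbols have an adjusted p below 0.05. DNMT1, DNMT3B, TET3 and MBD2 have overlapping bars for the shRNAs, while MBD4 lies at -0.30 with sh72 and 0.18 with sh68.

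Maintenance methylation is carried by DNMT1, which copies methylation onto the new DNA strand. DNMT1 (chromosome 19, 10133346 to 10194953 on GRCh38.p14) had 849, 765 and 770 CPM in sh72 libraries and 836, 786 and 798 CPM in sh68 libraries, against 705, 682 and 680 CPM in shSCR libraries. The lowest LSD1 shRNA library thus lay above the highest control. The means were 795 ± 46.8 CPM with sh72 and 807 ± 26.4 CPM with sh68, against 689 ± 13.8 CPM with shSCR (SD, n = 3 each). The log2 fold change was 0.21 ± 0.041 with sh72 (SE, edgeR adjusted p = 0.000167) and 0.23 ± 0.041 with sh68 (adjusted p = 4.61e-05), where the GC and length offsets gave 0.14 ± 0.044 (adjusted p = 0.0064). The shRNAs differed by -0.02 on the log2 scale, with a 95% interval from -0.10 to 0.06, and by 0.15 with the offsets for GC content and length (edgeR adjusted p = 0.00493). On the mean of both shRNAs, 47.8% of all tested genes changed at least as much in either direction. DNMT1 shares 83 exon bases, 0.847% of its exon length, with S1PR2 on the same strand, and S1PR2 rose by log2 0.33 with sh72 and 0.35 with sh68.

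UHRF1, the E3 ligase that recognises hemimethylated CpG sites and recruits DNMT1 (chromosome 19, 4903080 to 4962154), rose with sh68 only by the test. It had 132, 108 and 109 CPM in sh72 libraries and 166, 148 and 157 CPM in sh68 libraries, against 114, 120 and 106 CPM in shSCR libraries. All sh68 libraries lay above all others, and the sh72 and shSCR libraries overlapped. Its log2 fold change was 0.04 with sh72, with a 95% interval from -0.08 to 0.16, and 0.47 ± 0.061 with sh68 (SE, edgeR adjusted p = 6.21e-07). The difference between the shRNAs was itself past the threshold at -0.43 ± 0.061 (edgeR adjusted p = 1.79e-06). The ratio of UHRF1 to DNMT1 CPM was 0.146 ± 0.00832 with sh72 and 0.194 ± 0.00585 with sh68, against 0.165 ± 0.0104 with shSCR (SD, n = 3 each).

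UHRF2, the paralog of UHRF1, which binds 5-hydroxymethylcytosine (chromosome 9, 6413199 to 6507054), followed the same order. It had 128, 136 and 137 CPM in sh72 libraries and 179, 165 and 178 CPM in sh68 libraries, against 123, 120 and 129 CPM in shSCR libraries. Its log2 fold change was 0.11 ± 0.042 with sh72 (edgeR adjusted p = 0.0324) and 0.49 ± 0.042 with sh68 (adjusted p = 6.46e-10). The sh72 call was lost when shSCR replicate 1 or 2 or sh72 replicate 2 or 3 was left out, with adjusted p between 0.0533 and 0.0964. The difference between the shRNAs was -0.38 ± 0.042 (edgeR adjusted p = 3.57e-08). RPKM is CPM divided by the gene's own exon length in kilobases. The RPKM values of UHRF1 and UHRF2 added up to 36.1 ± 2.19 with sh72 and 48.1 ± 2.54 with sh68. With shSCR they added up to 34.5 ± 0.95 (SD, n = 3 each). This sum depends on the length used.

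The other partners of maintenance methylation did not move as a block. Of 8 partners tested, 3 rose and 1 fell when both shRNAs were averaged. Over all tested genes 24.9% rose and 27.5% fell. The risers were CDCA7L at log2 0.28, HELLS at 0.23 and PCNA at 0.18, of which HELLS is the remodeler that opens chromatin for DNMT1 and PCNA is the replication clamp that DNMT1 binds. KAT5, an acetyltransferase, fell by 0.45 on the log2 scale.

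Because DNMT1 and UHRF1 are S phase genes, a list of 18 S phase genes was read beside them. With sh72, 6 rose and 4 fell, with a median log2 fold change of 0.06. With sh68, 12 rose and none fell, with a median of 0.15. Between the shRNAs, 3 were higher and 10 lower with sh72, with a median of -0.14. Over all tested genes 24.7% rose and 26.3% fell with sh72, and 27.4% rose and 28.1% fell with sh68. Between the shRNAs the shares were 27.2% higher and 29.0% lower with sh72. On the mean of both shRNAs 10 rose and 2 fell, while 24.9% of all tested genes rose and 27.5% fell. GINS2 at 0.40, CDC6 at 0.35 and MCM3 at 0.23, all parts of the replication machinery, were among the risers. CCNE1, a G1/S cyclin, was at -0.30. CCNE1 fell by 0.57 with sh72 and had -0.03 with sh68 (edgeR adjusted p = 0.654). The part of cell-cycle composition in the values of DNMT1, UHRF1 and UHRF2 was not tested.

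De novo methyltransferases were present at low levels and gave no change shared by the shRNAs. DNMT3A, which methylates new CpG sites (chromosome 2, 25227874 to 25342590), had 6.18, 5.34 and 6.10 CPM in sh72 libraries and 8.84, 8.06 and 9.45 CPM in sh68 libraries, against 6.74, 6.79 and 7.05 CPM in shSCR libraries. The sh72 libraries lay below and the sh68 libraries above all controls. On the log2 scale the change was -0.22 ± 0.099 with sh72 (edgeR adjusted p = 0.0648) and 0.36 ± 0.093 with sh68 (adjusted p = 0.00219). The shRNAs differed by -0.58 ± 0.094 (edgeR adjusted p = 1.3e-05). With the GC and length offsets DNMT3A had -0.135 with sh72 (edgeR adjusted p = 0.255) and 0.253 with sh68 (adjusted p = 0.0201). The difference between the shRNAs was then -0.388 (edgeR adjusted p = 0.000955).

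DNMT3B, the other de novo enzyme (chromosome 20, 32762385 to 32809356), had 6.06, 5.50 and 6.86 CPM in sh72 libraries and 6.02, 6.72 and 6.25 CPM in sh68 libraries, against 5.47, 6.06 and 6.73 CPM in shSCR libraries. The 3 groups overlapped. It was the member with no call in any comparison, with a 95% interval of the log2 fold change from -0.20 to 0.22 with sh72 and from -0.15 to 0.27 with sh68. DNMT3L, the inactive cofactor of the de novo enzymes, averaged 0.00972 CPM with sh72, 0.0095 CPM with sh68 and 0.0106 CPM with shSCR and was not tested. TRDMT1, the family member that methylates transfer RNA, fell by 0.45 with sh72 and by 0.49 with sh68 on the log2 scale.

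TET1 and TET3 rose with both shRNAs, and TET2 rose with sh68. TET1, the founding TET dioxygenase (chromosome 10, 68560337 to 68694487), had 3.32, 4.01 and 4.89 CPM in sh72 libraries and 2.64, 3.05 and 2.56 CPM in sh68 libraries, against 1.98, 2.08 and 2.17 CPM in shSCR libraries. The 3 groups were separate, with sh72 highest and shSCR lowest. The rise on the log2 scale was 0.97 ± 0.16 with sh72 (edgeR adjusted p = 1.36e-05) and 0.41 ± 0.16 with sh68 (adjusted p = 0.0384). The sh68 call was lost with DESeq2 (adjusted p = 0.0637), limma-voom (0.0537) and the GC and length offsets (0.0561), and when any shSCR library or sh68 replicate 1 or 2 was left out, with adjusted p between 0.0512 and 0.13. The shRNAs differed by 0.56 ± 0.15 (edgeR adjusted p = 0.00201). On the mean of both shRNAs, 12.2% of all tested genes changed at least as much as TET1.

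TET2, which acts in B cells and their precursors to oxidise 5-methylcytosine (chromosome 4, 105145875 to 105279803), had 27.7, 27.6 and 26.9 CPM in sh72 libraries and 34.7, 33.3 and 36.8 CPM in sh68 libraries, against 26.5, 27.2 and 27.4 CPM in shSCR libraries. The sh72 and shSCR libraries overlapped and the sh68 libraries lay above both. For TET2 the log2 fold change was 0.02 with sh72, with a 95% interval from -0.08 to 0.13, and 0.37 ± 0.053 with sh68 (SE, edgeR adjusted p = 2.63e-06). The GC and length offsets lowered the sh68 value to 0.24 (edgeR adjusted p = 0.000306) and the mean over both shRNAs to 0.11, against 0.20 without them. The difference between the shRNAs was -0.35 ± 0.053 (edgeR adjusted p = 5.1e-06).

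TET3, the third dioxygenase of the family (chromosome 2, 73983631 to 74135498), had 46.4, 42.3 and 43.7 CPM in sh72 libraries and 45.4, 41.6 and 41.6 CPM in sh68 libraries, against 34.8, 33.4 and 34.6 CPM in shSCR libraries. Every LSD1 shRNA library lay above every control. TET3 rose by log2 0.36 ± 0.053 with sh72 (edgeR adjusted p = 3.6e-06) and 0.32 ± 0.053 with sh68 (adjusted p = 1.67e-05), where the offsets gave 0.20 (adjusted p = 0.00097). The shRNAs differed by 0.04, with a 95% interval from -0.06 to 0.14, and by 0.22 with the GC and length offsets (edgeR adjusted p = 0.000284). On the mean of both shRNAs, 31.1% of all tested genes changed at least as much as TET3.

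The 3 TET genes together reached 5.70 ± 0.135 RPKM with sh72 and 5.91 ± 0.177 RPKM with sh68, against 4.66 ± 0.0584 RPKM with shSCR (SD, n = 3 each). TET3 made up 63.1%, 59.1% and 60.0% of that sum with sh72, sh68 and shSCR. TET2 made up 29.2% with sh72, 35.9% with sh68 and 35.2% with shSCR. TET1 made up 7.71% with sh72, 5.02% with sh68 and 4.80% with shSCR. The shares depend on the length used. With the median transcript length, TET3, TET2 and TET1 had 10.1, 2.93 and 0.223 RPKM with shSCR. With the exon length they had 2.79, 1.64 and 0.223 RPKM. Between the shRNAs the summed level overlapped, at 5.56 to 5.82 RPKM with sh72 and 5.74 to 6.09 RPKM with sh68, whereas none of the 3 shares overlapped.

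Among 8 tested TET partners and enzymes of the cofactor 2-oxoglutarate, 4 rose and 2 fell over both shRNAs. The shares over all tested genes were 24.9% higher and 27.5% lower. IDH2, which makes 2-oxoglutarate in mitochondria, rose by log2 0.41, PROSER1 by 0.38 and VHL by 0.24, while VPRBP, the older symbol of DCAF1, fell by 0.35. PROSER1 is known in human cells as a partner of OGT and TET2. A list of base excision and GADD45 genes, which is not limited to the repair of TET products, had 3 of 14 rising and 7 falling on the same mean. NEIL3, a DNA glycosylase, rose by log2 0.48 and GADD45A, a stress-induced factor, by 0.43, while NEIL2, another glycosylase, and GADD45B fell by 0.55 and 0.52. NEIL2 had -0.25 with sh72 (edgeR adjusted p = 0.13) and fell by 0.85 with sh68.

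**Figure D3:**
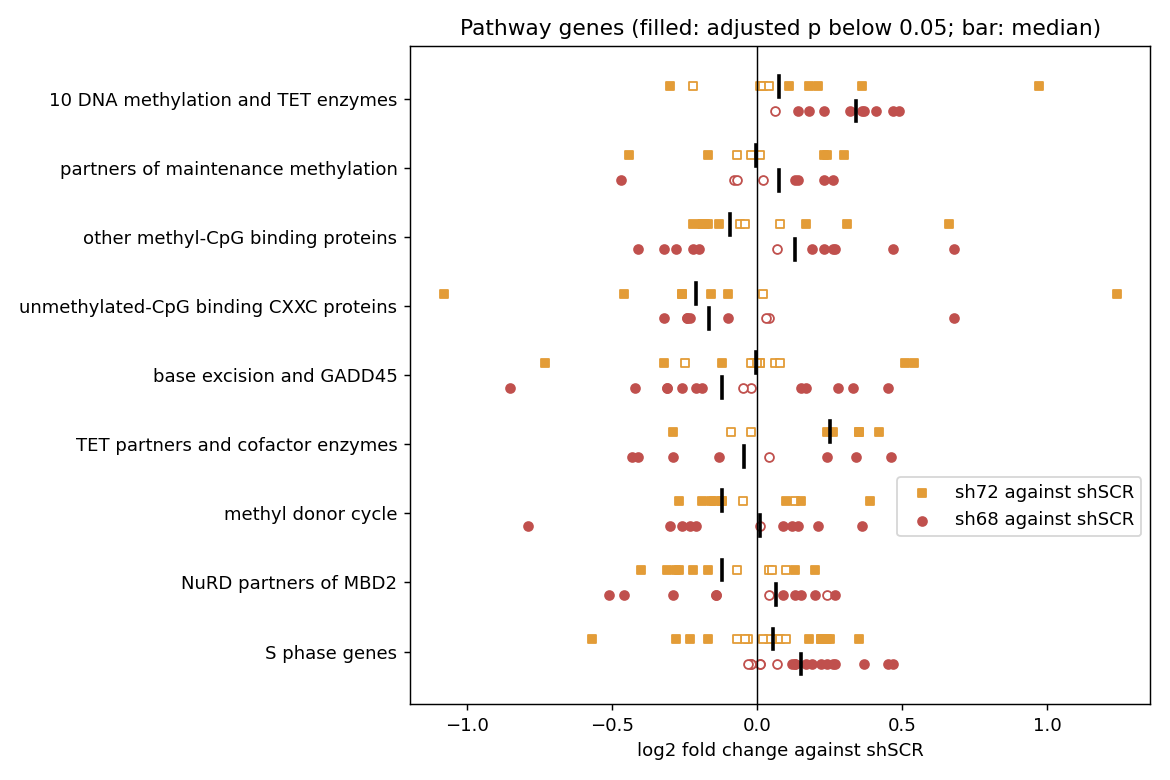
Log2 fold change with sh72 and with sh68 against shSCR for the 10 genes and for each list of pathway genes, 1 symbol per tested gene, filled where the adjusted p is below 0.05. Black bars are medians, which for the 10 genes are 0.07 with sh72 and 0.34 with sh68.

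Among proteins that bind modified or unmodified CpG sites, MBD2 rose with both shRNAs and MBD4 moved in opposite directions. MBD2, which recruits the NuRD remodelling complex to methylated DNA (chromosome 18, 54151606 to 54224669), had 182, 165 and 170 CPM in sh72 libraries and 160, 168 and 177 CPM in sh68 libraries, against 153, 154 and 151 CPM in shSCR libraries. All LSD1 shRNA libraries lay above the controls by a small margin. MBD2 rose by log2 0.18 ± 0.043 with sh72 (edgeR adjusted p = 0.00132) and 0.14 ± 0.043 with sh68 (adjusted p = 0.00652). With the GC and length offsets the sh68 value was 0.071 and no longer passed (edgeR adjusted p = 0.146). The shRNAs differed by 0.03, with a 95% interval from -0.05 to 0.12, and by 0.11 with the offsets (edgeR adjusted p = 0.0301).

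MBD4, a glycosylase that removes thymine from T:G mismatches left by deaminated 5-methylcytosine (chromosome 3, 129430947 to 129439948), had 132, 133 and 136 CPM in sh72 libraries and 185, 187 and 187 CPM in sh68 libraries, against 162, 164 and 168 CPM in shSCR libraries. The 3 groups were separate, with shSCR between the shRNAs. The log2 fold change was -0.30 ± 0.036 with sh72 (edgeR adjusted p = 1.7e-07) and 0.18 ± 0.035 with sh68 (adjusted p = 0.000161), where the offsets gave 0.10 (adjusted p = 0.00845). The mean over both shRNAs was -0.06 (edgeR adjusted p = 0.0904) and passed at -0.12 with the GC and length offsets (adjusted p = 0.000755). The difference between the shRNAs was -0.48 ± 0.035 (edgeR adjusted p = 4.91e-11). MBD4 shares 144 exon bases, 4.29% of its exon length, with IFT122 on the opposite strand. IFT122 fell by 0.19 with sh72 and had -0.09 with sh68 on the log2 scale, and it is not stated whether the counting used strand.

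The 12 tested NuRD partners of MBD2 counted 3 higher and 5 lower over both shRNAs. For this and the next lists, the shares over all tested genes were 24.9% higher and 27.5% lower. CHD3 and CHD4, its ATPases, fell by 0.43 and 0.28 and the subunit MTA2 fell by 0.39, while the histone chaperone RBBP7 rose by 0.16. Of 12 genes on a list of other methyl-CpG binding proteins and their relatives, 4 rose and 4 fell. ZBTB38 was at 0.57, ZBTB4 at -0.32 and SETDB1 at -0.25 on the mean. SETDB2 averaged 0.27 but was called in opposite directions, at -0.13 with sh72 and 0.68 with sh68. Proteins whose CXXC domain binds unmethylated CpG sites counted 1 higher and 6 lower of 8. CXXC4 rose by 0.96, while CXXC5, CXXC1 and KMT2B fell by 0.66, 0.35 and 0.25.

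The methyl donor cycle supplies S-adenosylmethionine to the methyltransferases. Of 11 tested genes listed with it, 3 rose and 5 fell on the mean of both shRNAs, against 24.9% and 27.5% of all tested genes. SHMT2, the mitochondrial serine hydroxymethyltransferase, fell by 0.49, while AHCY, which clears S-adenosylhomocysteine, and MTHFD1 rose by 0.26 and 0.23. AHCYL1, listed as a relative of AHCY, fell by 0.21. A list of 21 germline genes that promoter methylation is known to silence was also read. Only 10 of them were in the count table, and only SYCP3 and MAGEA3 passed the filter on low counts. The list therefore cannot tell whether silenced promoters changed, because silent genes are not tested. Neither SYCP3 nor MAGEA3 passed the test on the mean of both shRNAs. SYCP3, a component of the meiotic chromosome axis, averaged 1.71 CPM with sh72 and 2.28 CPM with sh68, against 1.5 CPM with shSCR, and rose with sh68 at log2 0.60 (edgeR adjusted p = 0.00736).

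**Figure D4:**
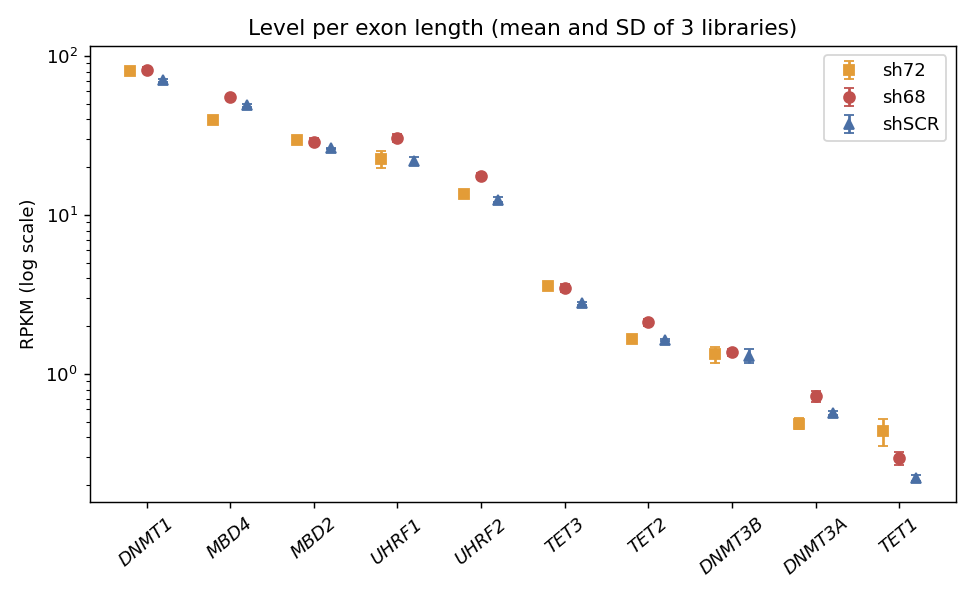
Level of each gene per exon length, as mean and SD of 3 libraries of sh72, sh68 and shSCR, in RPKM on a log axis. In shSCR libraries the order runs from DNMT1 at 70.3 RPKM to TET1 at 0.223 RPKM.

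Per exon length, DNMT1 was the most abundant of the 10 genes in control cells, at 70.3 ± 1.41 RPKM with shSCR (SD, n = 3). MBD4 at 49.1, MBD2 at 26.3, UHRF1 at 22 and UHRF2 at 12.5 RPKM followed. TET3 at 2.79, TET2 at 1.64, DNMT3B at 1.31, DNMT3A at 0.571 and TET1 at 0.223 RPKM formed the low end. No 2 neighbours in this order had overlapping shSCR libraries. DNMT1 supplied 97.8% of the summed DNMT RPKM with sh72, 97.5% with sh68 and 97.4% with shSCR. The order and these shares depend on the length used. With the median transcript length UHRF2 came after DNMT1, and DNMT3A came before TET2 and DNMT3B.

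Genes with the most similar profile over the 9 libraries were sought among 11569 tested genes with an average log2 CPM of at least 1, by Euclidean distance of centred log2 CPM. For DNMT1 they were TAF6, APBB1IP and PABPC4, at distances of 0.086, 0.103 and 0.106. For UHRF1 they were E2F2, ZNF282 and SPRED2, at 0.147, 0.165 and 0.222. E2F2 had log2 fold changes of 0.02 with sh72 and 0.44 with sh68. E2F1, of the S phase list, went the other way, with 0.25 with sh72 and 0.01 with sh68. A part of E2F factors in the UHRF1 values was not tested. For TET1 the nearest was LOC100506258 at 0.291, followed by ADGRE5 and CFAP47 at 0.359 and 0.369. For TET3 they were PRELID3A, PROSER1 and SDE2, at 0.113, 0.117 and 0.124.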

How the data were processed

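Per the submitters' processing notes, CASAVA 1.8.2, STAR 2.5.2 and featureCounts 1.5.2 were used with the hg38 genome; their parameters and annotation, and whether strand was used, are not given here. The deposited table holds raw read counts per gene symbol, with no normalization by the authors. Its columns call the LSD1 shRNA libraries sh68 and sh72, and no label ties these names to the numbered sample titles.

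The counts were analysed with edgeR 4.0.16 (R 4.3.3). After filterByExpr and TMM scaling, 1 quasi-likelihood model, with the 3 groups as terms, was fitted to the 9 libraries together. The model was also run on simulated counts that gave every gene the same spread and changed far fewer genes than were called here. Scaling and error rates at the share of calls seen in these data were not tested. P-values were adjusted over all 15725 tested genes by the method of Benjamini and Hochberg, with a threshold of 0.05. The 95% intervals are not adjusted. CPM and RPKM use TMM-scaled library sizes, and RPKM the exon lengths of GENCODE 29. The exact test used log2 CPM with a prior count of 2.

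As alternatives the scaling was changed to RLE or to library size, the filter was dropped or set to at least 1 CPM in 3 libraries, and DESeq2 1.42.0 or limma-voom (limma 3.58.1) replaced edgeR. Other alternatives were the 6 LSD1 shRNA libraries as a single group, a fit of the compared groups alone, a robust fit, the replicate number as a block, and leaving out each library. Offsets for GC content and length, which 18882 genes of the table had, were added after seeing the data, as was a fit of those genes without offsets.

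The genes and lists were chosen with earlier results of these data known. From each list, up to 4 called genes with the largest change on the mean of both shRNAs were named. SYCP3, MAGEA3, DNMT3L, S1PR2, IFT122, JCHAIN, SDC1, EPCAM and E2F1 fall outside that rule and were chosen after their values were seen. A gene that the lists and the rule took is not reported here.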

Additional observations from a re-analysis of the deposited data

Results flagged for a closer look

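For 6 of the 10 genes the effects of the 2 shRNAs differed by edgeR's test of the difference itself. Over all tested genes 27.2% were higher and 29.0% lower with sh72 than with sh68, so 6 of 10 is close to the share of the whole table. The log2 difference, sh72 minus sh68, was -0.58 for DNMT3A, 0.56 for TET1, -0.48 for MBD4, -0.43 for UHRF1, -0.38 for UHRF2 and -0.35 for TET2. MBD4 is the gene called in opposite directions by the shRNAs. DNMT3A libraries also lay on opposite sides of the controls, but only the rise with sh68 passed. KDM1A itself was lower with sh72, by -0.23 on the log2 scale (edgeR adjusted p = 0.00261).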

How the results depend on the processing

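Of 800 fold changes of the 10 genes under alternative settings, 767 kept their direction and their side of the threshold, 16 lost a call, 3 gained a call in the same direction and 14 changed sign. With the 6 LSD1 shRNA libraries fitted as a single group, 4 of the 10 genes and 3581 genes in all were called. Among the sign changes, DNMT1 for sh72 minus sh68 passed the threshold with the GC and length offsets, and the other 13 passed neither before nor after. With the GC and length offsets, TET2 with sh72 was -0.018, and sh72 minus sh68 was 0.15 for DNMT1 and 0.008 for DNMT3B. Leaving out each library in turn, DNMT3B ranged from -0.027 to 0.122 on the mean, from -0.054 to 0.101 with sh72, from -0.007 to 0.143 with sh68 and from -0.121 to 0.034 for sh72 minus sh68. In the same way UHRF1 with sh72 ranged from -0.065 to 0.108, and sh72 minus sh68 ranged from -0.072 to 0.013 for DNMT1 and from -0.008 to 0.073 for MBD2. The cause was not tested. Same-numbered libraries had residual correlations between -0.036 and 0.072 over 9 pairs, so the number was not taken to pair them. With the replicate number as a block, 7, 6, 9 and 6 of the 10 genes were called on the mean, with sh72, with sh68 and for sh72 minus sh68, as without it. Depth limits TET1, with as few as 60 reads in a library.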
